A study of Homo sapiens with 48 samples.

Results

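The 10 genes described here encode junction proteins and surface adhesion proteins of epithelial cells (CDH1, EPCAM, CLDN3, CLDN4, CLDN7, OCLN and TJP1) and markers of the mesenchymal state (CDH2, VIM and ZEB1). They were chosen by gene symbol from the 61817 entries of the count table, and all 10 were among the 20009 genes that passed the filter on low counts. Epithelial cells are held together by tight junctions, in which claudins and occludin (OCLN) span the membrane and the scaffold protein ZO-1 (TJP1) ties them to actin, and by adherens junctions, in which E-cadherin (CDH1) binds its like on the next cell. In the epithelial to mesenchymal transition, a program that carcinoma cells can enter in part or in full, E-cadherin gives way to N-cadherin (CDH2) and vimentin (VIM) filaments appear. ZEB1, a zinc finger repressor that drives that program, binds E-box motifs in the promoters of epithelial genes.

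RNA was sequenced from cultures of 22Rv1, a human castration-resistant prostate cancer cell line, and from 5 lines derived from it. Rv1-WT was the parental line and Rv1-Luc a subline transduced with firefly luciferase. The other lines came from cells in which CRISPR had disrupted both Mediator kinase genes, CDK8 and CDK19, after which a human kinase was put back. The kinase was active CDK8 in dKO-8, active CDK19 in dKO-19, and the kinase-dead form of each in dKO-8M and dKO-19M. Cultures of the first pair of lines grew in fetal bovine serum (FBS) or in androgen-depleted, charcoal-stripped serum (CSS), and those of the dKO lines in FBS alone. Cells for CSS were passaged in it before treatment and seeded more densely, so that medium, passage and density cannot be told apart. Every line received 500 nM of the CDK8 and CDK19 inhibitor SNX631 or 0.1% DMSO as vehicle for 72 hours, in 3 biological replicates, which gave 16 groups and 48 libraries. Each line is a separate derivation, so that transduction, selection and the named change cannot be told apart when lines are compared. The dKO-8 and dKO-8M lines also had an empty-vector transduction before their kinase was added, which dKO-19 and dKO-19M did not.

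Library totals ran from 13231751 to 31496020 counts. The luciferase transcript was found in Rv1-Luc libraries and in no other. The RNA of the disrupted kinase genes remained detectable (CDK19 from 101 to 135 in counts-per-million units, CPM, in dKO-8, against 148 to 281 in Rv1-WT), so RNA level does not check the knockout. Replicate 1 of the dKO-19M vehicle group stood apart from its replicates (chi-square per degree of freedom 15.5 or more, against 1.27 to 8.82 for all other pairs), and replicate 1 of the Rv1-Luc FBS vehicle group came next. Results that rest on these 2 libraries are also given without both of them, an alternative chosen after the data were seen. The luminal prostate markers KRT8, KRT18, FOXA1 and HOXB13 were present in every library, and the basal markers KRT5 and KRT14 were at most 0.149 CPM. Immunoglobulin transcripts were seen mainly in Rv1-Luc, where IGHG1 had a median of 2.24 CPM and IGKC of 2.16 CPM, against medians of 0 in the other lines.

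The positions given are those of GENCODE release 29 on GRCh38, which the submitters' notes also name as a build, with the annotation release they used not given in the sources used here. CLDN3 (chr7:73768997-73770270, minus strand) and CLDN4 (chr7:73799542-73832693, plus strand) are neighbours, with 29271 bases between them. CLDN7 lies on chromosome 17 (chr17:7259903-7263983, minus strand). CDH1 is at chr16:68737225-68835548, EPCAM at chr2:47345158-47387601, OCLN at chr5:69492292-69558104 and TJP1 at chr15:29699367-29968865. The mesenchymal genes are at chr18:27950966-28177446 (CDH2), chr10:17228259-17237593 (VIM) and chr10:31318495-31529814 (ZEB1).

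The upstream sequences of the 4 members called in the most comparisons are shown so that the start regions of the genes that moved can be read beside their values. They come from RefSeq promoter entries on GRCh38.p14 and hold the 250 bases before an annotated start site, 5′ to 3′ on the strand of the gene. Capitals mark the E-box hexamer CAGGTG in either orientation (CAGGTG or CACCTG).
CLDN4 (chr7:73830746-73830995, plus strand): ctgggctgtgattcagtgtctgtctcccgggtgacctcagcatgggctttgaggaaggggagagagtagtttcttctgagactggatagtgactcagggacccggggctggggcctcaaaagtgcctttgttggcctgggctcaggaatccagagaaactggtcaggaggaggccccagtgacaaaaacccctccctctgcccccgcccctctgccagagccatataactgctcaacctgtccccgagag
CLDN7, upstream start site (chr17:7263214-7263463, minus strand): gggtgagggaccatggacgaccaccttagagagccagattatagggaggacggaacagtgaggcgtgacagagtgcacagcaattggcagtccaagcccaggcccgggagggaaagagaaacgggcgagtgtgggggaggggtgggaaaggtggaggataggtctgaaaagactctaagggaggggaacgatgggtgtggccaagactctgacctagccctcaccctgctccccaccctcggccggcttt
CLDN7, downstream start site (chr17:7262479-7262728, minus strand): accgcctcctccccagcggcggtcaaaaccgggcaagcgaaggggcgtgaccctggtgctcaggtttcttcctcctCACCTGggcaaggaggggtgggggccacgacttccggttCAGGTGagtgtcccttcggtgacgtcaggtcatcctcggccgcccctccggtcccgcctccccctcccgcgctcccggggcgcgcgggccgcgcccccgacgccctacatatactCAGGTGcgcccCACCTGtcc
CDH2 (chr18:28177131-28177380, minus strand): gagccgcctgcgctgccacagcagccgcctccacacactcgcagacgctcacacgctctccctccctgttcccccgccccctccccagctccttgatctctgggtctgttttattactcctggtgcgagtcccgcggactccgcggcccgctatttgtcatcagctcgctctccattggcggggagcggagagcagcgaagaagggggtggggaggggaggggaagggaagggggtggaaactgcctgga
VIM (chr10:17227991-17228240, plus strand): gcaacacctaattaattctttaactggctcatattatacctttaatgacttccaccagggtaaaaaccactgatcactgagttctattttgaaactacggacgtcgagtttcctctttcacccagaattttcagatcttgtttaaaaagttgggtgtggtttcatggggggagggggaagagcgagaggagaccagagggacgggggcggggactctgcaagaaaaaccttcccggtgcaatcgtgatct

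The window before the downstream CLDN7 start site held 4 E-box hexamers, while the CLDN4, CDH2 and VIM windows and the other CLDN7 window held 0. Of 35116 promoter windows of the same length, 17.5% held at least 1 such hexamer and 0.122% held 4 or more. Entries were found for 8 of the 10 members, with 20 start sites in all, some of which overlap. CLDN3 had 0 matches, both OCLN windows had 1, and TJP1 and ZEB1 had 1 or more match in some windows and 0 in others. A match is a string of letters only, and no binding was measured.

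Compared per kilobase of annotated exon, the members fell into a high and a low range. In vehicle-treated Rv1-WT cells in FBS, CLDN7 was the highest at 98.4 ± 2.22 CPM per kilobase (SD, n = 3), followed by CDH1 at 49.1 ± 1.81, EPCAM at 41.7 ± 1.36, CLDN4 at 38.4 ± 1.82 and CLDN3 at 38.3 ± 4.08 CPM per kilobase. EPCAM, CLDN4 and CLDN3 differed by less than the SD of CLDN3. TJP1 stood at 10.1 ± 0.788 CPM per kilobase, OCLN at 3.09 ± 0.320, VIM at 2.76 ± 0.116, CDH2 at 2.73 ± 0.291 and ZEB1 at 0.227 ± 0.0373. In dKO-8M under vehicle the order of the claudins was turned: CLDN4 stood at 164 ± 1.89 CPM per kilobase and CLDN7 at 12.7 ± 0.715. Exons of all annotated transcripts were counted in the length (4702 bases for CLDN4, 1274 for CLDN3), so the level of a gene with long rare transcripts is understated. The ranks above, the order of CLDN4 and CLDN7 among them, rest on these lengths, and other lengths were not tried.

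CDH1 and EPCAM were the steadiest members. CDH1 group means ran from 254 to 383 CPM, a 1.51-fold span, and EPCAM from 81.0 to 108 CPM, a 1.33-fold span. The spans were 1.77-fold for TJP1, 1.89-fold for CLDN3, 3.11-fold for OCLN, 8.41-fold for CLDN4, 10.7-fold for VIM, 11.7-fold for CLDN7, 23.9-fold for ZEB1 and 25.3-fold for CDH2. When the 16 groups were ordered by mean, 12 of the 15 pairs of neighbours overlapped in their libraries for CDH1, 13 for EPCAM and 14 for CLDN3, against 6 for CLDN4 and 5 for CLDN7. The claudins CLDN4 and CLDN7 therefore separated more of the groups than the other members did.

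The first question was whether inhibition of CDK8 and CDK19 by SNX631 changed the members. Calls needed an FDR, the false discovery rate over all tested genes, under 0.01 and a fold change over 1.5. CLDN4, which forms part of the tight junction seal, rose under SNX631 in all 4 settings of Rv1-WT and Rv1-Luc and in dKO-8, while CLDN7 fell in the same 5 settings and, by less, in dKO-19 and dKO-19M. CLDN3 rose in 3 of them. Over the 8 comparisons with vehicle, 7 of 80 member tests were called (5 higher, 2 lower), beside 2.45% of all gene tests (1.51% higher, 0.940% lower), and 21 of 80 passed the FDR limit alone, beside 9.69%. Where SNX631 and vehicle groups are said below not to overlap, such separation held for 15.6% (dKO-19M) to 38.0% (Rv1-WT CSS) of all genes. In bulk RNA, fewer cells that make a transcript and less of it per cell cannot be told apart.

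**Figure D1:**
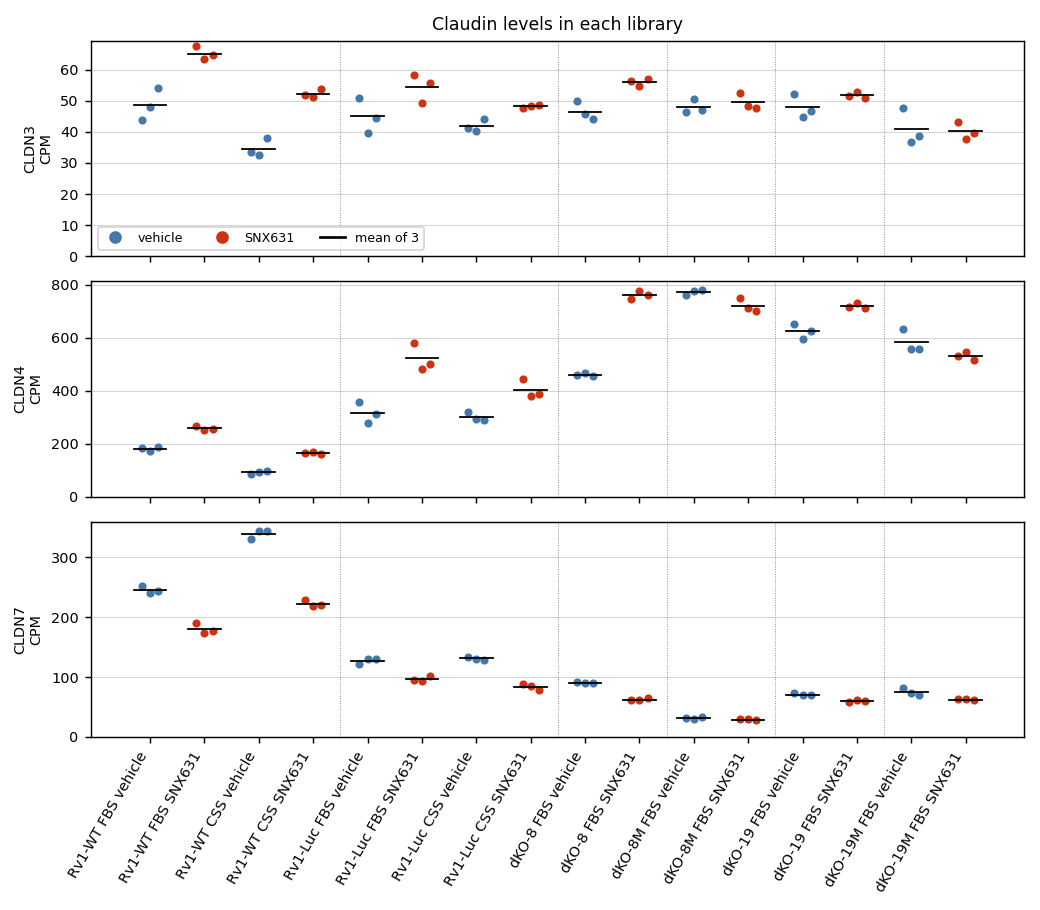
Levels of CLDN3, CLDN4 and CLDN7 in counts-per-million units (CPM, linear axes from 0) in each of the 48 libraries, by group, with vehicle in blue, SNX631 in red and a black line for the mean of 3 libraries. CLDN4 is higher and CLDN7 lower under SNX631 in Rv1-WT, Rv1-Luc and dKO-8, and the lines with high CLDN4 have low CLDN7.

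In Rv1-WT grown in FBS, the CLDN4 libraries held 184, 171 and 186 CPM under vehicle and 268, 251 and 257 CPM under SNX631. The groups did not overlap, and the log2 change of 0.52 ± 0.07 (SE, n = 3 against 3) passed the FDR limit (FDR 1.63e-07) at 1.43-fold, below the fold limit. In CSS the vehicle libraries held 86.2, 92.0 and 97.5 CPM and the SNX631 libraries 163, 167 and 162 CPM. Every SNX631 library lay above every vehicle library, with a log2 change of 0.83 ± 0.07 (1.78-fold, FDR 1.62e-12), which was called. The SNX631 effect in CSS exceeded that in FBS by 0.32 on the log2 scale, with a 95% interval of 0.12 to 0.51 that did not pass the limit after adjustment (FDR 0.0646).

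Rv1-Luc started from a higher level. Its CLDN4 libraries in FBS held 357, 278 and 313 CPM under vehicle and 581, 483 and 502 CPM under SNX631, without overlap, for a called log2 change of 0.72 ± 0.06 (1.65-fold, FDR 5.85e-12). That call was lost when only these 6 libraries were fitted (FDR 0.0113) and stood at 0.82 without the 2 libraries that stood apart, vehicle replicate 1 of this group among them. In CSS the values were 318, 293 and 289 CPM under vehicle and 445, 378 and 387 CPM under SNX631, again apart, with a log2 change of 0.43 ± 0.06 (1.34-fold, FDR 1.61e-06). The CSS effect minus the FBS effect was -0.30 in Rv1-Luc (interval -0.48 to -0.11, FDR 0.161), and -0.39 without the 2 libraries that stood apart (FDR 0.00768, past the FDR limit alone). The effect in Rv1-Luc was not shown to differ from that in Rv1-WT in FBS (difference 0.20, interval 0.02 to 0.39, FDR 0.354).

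The lines with a kinase put back set the claudin response with an active form beside that with a kinase-dead form. Each form is a separate derivation, so kinase activity and derivation cannot be told apart here. In dKO-8, CLDN4 stood at 460, 466 and 457 CPM under vehicle and at 746, 775 and 762 CPM under SNX631. All SNX631 libraries were far above the vehicle libraries, and the log2 change of 0.72 ± 0.06 (1.65-fold, FDR 9.73e-12) was called. In dKO-8M, with the kinase-dead form, the vehicle libraries held 763, 776 and 779 CPM and the SNX631 libraries 750, 711 and 702 CPM, a log2 change of -0.10 ± 0.06 that did not pass (FDR 0.664). The difference between the 2 responses was 0.82 ± 0.09 on the log2 scale (interval 0.64 to 1.00, FDR 1.36e-08), a called interaction. Vehicle-treated dKO-8M cells and SNX631-treated dKO-8 cells overlapped in their CLDN4 levels.

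In the CDK19 pair the response was smaller. The dKO-19 libraries held 651, 596 and 626 CPM of CLDN4 under vehicle and 716, 731 and 711 CPM under SNX631, apart from each other but with a log2 change of 0.21 ± 0.06 that did not pass (FDR 0.0152). In dKO-19M the values were 635, 558 and 559 CPM under vehicle and 531, 546 and 515 CPM under SNX631, a log2 change of -0.14 ± 0.06 (FDR 0.280). The difference between dKO-19 and dKO-19M passed the FDR limit (0.34 ± 0.09, FDR 0.00769), but not without the 2 libraries that stood apart (0.28, FDR 0.0157). The response of dKO-19 differed from that of dKO-8 by -0.52 ± 0.09 on the log2 scale (FDR 0.000110). Members called under SNX631 numbered 0 in Rv1-WT FBS (2.39% of all genes were called there), 3 in Rv1-WT CSS (4.23%), 1 in Rv1-Luc FBS (3.67%), 1 in Rv1-Luc CSS (4.06%), 1 in dKO-8 (1.71%), 1 in dKO-19 (3.41%), 0 in dKO-8M (0.0150%) and 0 in dKO-19M (0.0900%). Few genes of any kind were called in the kinase-dead lines.

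CLDN7 moved the other way. In Rv1-WT in FBS its libraries held 252, 241 and 243 CPM under vehicle and 191, 174 and 178 CPM under SNX631, without overlap, a log2 change of -0.44 ± 0.04 (FDR 6.43e-12). In CSS it fell from 331, 344 and 343 CPM to 228, 219 and 220 CPM, a called log2 change of -0.61 ± 0.04 (FDR 4.92e-18). Every SNX631 library was below every vehicle library in both media.

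Rv1-Luc showed CLDN7 at 122, 129 and 130 CPM under vehicle and at 94.4, 93.6 and 101 CPM under SNX631 in FBS, a log2 change of -0.40 ± 0.04 (FDR 1.02e-10). In CSS the values were 134, 130 and 129 CPM against 88.5, 84.6 and 78.4 CPM, a called log2 change of -0.64 ± 0.04 (FDR 7.37e-18). In dKO-8 the gene went from 91.9, 89.6 and 90.7 CPM to 61.1, 61.8 and 64.5 CPM, by -0.54 ± 0.05 (FDR 8.84e-14). None of these groups overlapped with its vehicle group.

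In dKO-8M, where CLDN7 was lowest, the libraries held 32.0, 29.7 and 33.3 CPM under vehicle and 29.3, 29.4 and 28.4 CPM under SNX631, a log2 change of -0.12 ± 0.06 that did not pass (FDR 0.461). The responses of dKO-8 and dKO-8M differed by -0.42 ± 0.07 (FDR 4.56e-05). The CDK19 pair gave another picture, since CLDN7 fell in dKO-19M, the line with the kinase-dead form, with a log2 change of -0.27 ± 0.05 (FDR 0.000299), and in dKO-19, with -0.24 ± 0.05 (FDR 0.000113), and the difference between them was 0.03 with an interval of -0.10 to 0.17. The dKO-19M fall included the vehicle library that stood apart, which had the highest CLDN7 value of its group (82.2 CPM, against 73.8 and 70.1), and was -0.20 without the 2 libraries that stood apart (FDR 0.00938). CLDN7 counts held fractions in 58.3% of libraries, as shared reads can give, against 41.7% for CDH1 and 6.25% for CLDN4. An annotated gene on the same strand covers 269 of the CLDN7 exon bases. The source of the fractions is not known, so the values of CLDN7 and CDH1 are less certain than those of CLDN4.

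CLDN3, the neighbour of CLDN4 and a claudin of the same sealing type, rose with it in Rv1-WT. In FBS its libraries held 43.9, 48.1 and 54.2 CPM under vehicle and 67.6, 63.5 and 64.7 CPM under SNX631 (log2 0.42 ± 0.08, FDR 0.000112). In CSS it went from 33.4, 32.5 and 37.9 CPM to 51.9, 51.2 and 53.8 CPM, a log2 change of 0.59 ± 0.08 (FDR 2.12e-07) that was called at 1.51-fold. The groups were apart in both media, but the call sits at the fold limit and was lost without vehicle replicate 1 (0.57), vehicle replicate 2 (0.55) or SNX631 replicate 3 (0.57). In Rv1-Luc in FBS CLDN3 rose by 0.27 ± 0.08 (FDR 0.00737) with 1 SNX631 library within the vehicle range, and in the other 5 settings it did not pass, with log2 changes of -0.03 to 0.27.

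**Figure D2:**
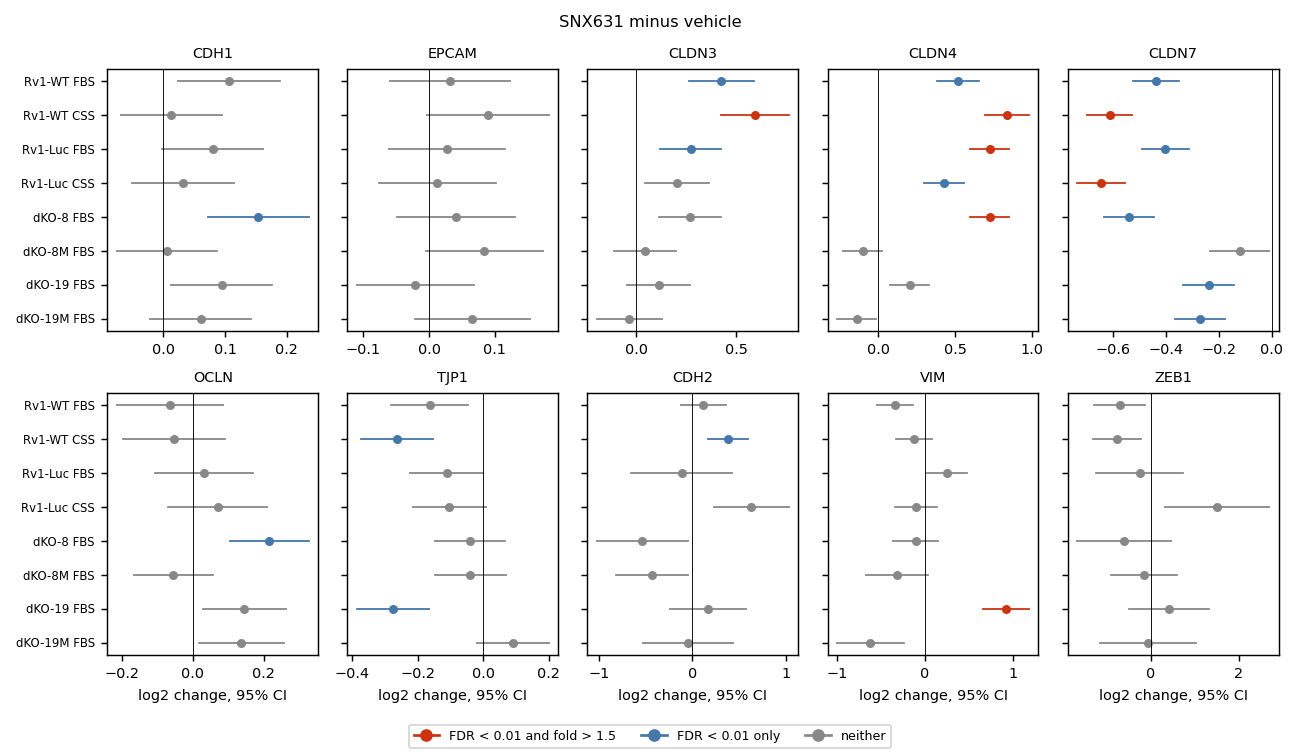
Log2 change under SNX631 against vehicle with its 95% interval for each of the 10 members (panels, each with its own scale) in the 8 settings (rows), in red where called, in blue where the FDR limit alone was passed and in grey otherwise. CLDN4 lies to the right and CLDN7 to the left of 0 in Rv1-WT, Rv1-Luc and dKO-8, CDH1 and EPCAM stay close to 0, and VIM is called in dKO-19 alone.

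The remaining junction members changed little under SNX631. EPCAM, a surface glycoprotein that promotes adhesion of epithelial cells, had log2 changes between -0.02 and 0.09 and passed in 0 of 8 settings. CDH1 had log2 changes between 0.01 and 0.15 and passed the FDR limit in dKO-8 only, where it went from 299, 296 and 310 CPM to 333, 339 and 335 CPM (0.15 ± 0.04, FDR 0.00551). OCLN likewise passed in dKO-8, from 45.3, 46.4 and 46.4 CPM to 52.5, 55.1 and 52.8 CPM (0.22 ± 0.06, FDR 0.00443). Both rises were small, and their groups did not overlap. TJP1 fell in Rv1-WT in CSS, from 176, 177 and 167 CPM to 144, 142 and 148 CPM (-0.26 ± 0.05, FDR 0.000146), and in dKO-19, from 141, 141 and 135 CPM to 119, 109 and 117 CPM (-0.28 ± 0.06, FDR 0.000103). The TJP1 response of dKO-19 differed from that of dKO-19M by -0.36 ± 0.08 on the log2 scale (FDR 0.000652). The library that stood apart was the lowest of the dKO-19M vehicle group, at 96.1 CPM against 123 and 125 CPM, and without both such libraries the difference was -0.25 (FDR 0.00145).

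Of the mesenchymal members, VIM responded in 1 line. In dKO-19 its libraries held 4.15, 2.57 and 3.40 CPM under vehicle and 7.18, 6.09 and 6.05 CPM under SNX631 (50 to 88 counts against 118 to 150 counts), all apart, for a called log2 change of 0.92 ± 0.13 (1.90-fold, FDR 8.61e-08). In dKO-19M the values were 1.97, 2.45 and 1.79 CPM under vehicle and 1.17, 1.22 and 1.60 CPM under SNX631, a log2 change of -0.62 ± 0.19 that did not pass (FDR 0.0609). The difference between the 2 lines was 1.54 ± 0.23 on the log2 scale (FDR 9.02e-07) and that between dKO-19 and dKO-8 was 1.03 ± 0.18 (FDR 8.66e-05), and both interactions were called. Without the 2 libraries that stood apart the first was 1.58 (FDR 1.92e-06). In dKO-8 VIM stood at 4.51, 4.03 and 5.02 CPM under vehicle and 4.19, 4.57 and 3.91 CPM under SNX631, with overlap (-0.11 ± 0.13, FDR 0.676). In the other settings the log2 changes of VIM were -0.34 to 0.25 and did not pass.

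CDH2 passed the FDR limit under SNX631 in Rv1-WT in CSS, from 18.5, 18.4 and 19.5 CPM to 24.5, 23.1 and 25.8 CPM (0.38 ± 0.11, FDR 0.00534). Elsewhere its log2 changes ran from -0.53 to 0.63 and none passed, although the change in Rv1-Luc in CSS did so without vehicle replicate 3 of that group (0.81, FDR 0.00630). ZEB1 did not pass in any setting. In Rv1-WT, the line where ZEB1 is highest, it held 1.82, 1.74 and 2.34 CPM under vehicle and 1.69, 0.738 and 1.13 CPM under SNX631 in FBS (FDR 0.0964), and 2.17, 1.92 and 2.54 CPM against 1.04, 1.17 and 1.68 CPM in CSS (FDR 0.0283). These rest on 10 to 49 counts per library, and changes in the other lines, with 1 to 16 counts, were not detectable at this depth.

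Other genes of the same pathways were counted from 4 lists, to be read beside the shares of all genes called in each setting, given above. Of 18 tested tight junction and polarity genes, 0 were called under SNX631 in 7 of 8 settings, and in dKO-19 CLDN1 was called higher, from 0.260 to 0.959 CPM. Of 18 adherens junction and desmosome genes, at most 1 was called in a setting, the desmosomal plaque protein periplakin (PPL), which fell in CSS in both Rv1-WT (-0.61 ± 0.19, FDR 0.00966) and Rv1-Luc (-0.61 ± 0.16). Of 16 epithelial regulators, 2 were called higher in Rv1-Luc in FBS, among them the transcription factor ELF3 (0.70 ± 0.07, FDR 9.19e-10), and 1 in Rv1-Luc in CSS. The median log2 change of the epithelial regulators ran from -0.03 to 0.06 over the 8 settings, beside 0.00 to 0.01 for all genes.

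The list of mesenchymal genes, had 17 of its 26 genes tested. In Rv1-WT 3 of them were called higher in FBS (1.75% of all genes were) and 4 in CSS (2.97%), and 0 lower. In Rv1-Luc 3 were higher in FBS (2.32% of all genes) and 3 in CSS (2.45%). The genes shared by these settings encode matrix proteins. In Rv1-WT fibronectin (FN1) had log2 changes of 1.78 ± 0.10 (FBS) and 1.93 ± 0.10 (CSS, from 48.3 to 185 CPM, FDR 7.05e-18), and in Rv1-Luc of 1.30 and 1.66. Those of tenascin-C (TNC) were 0.86 and 0.89 in Rv1-WT, and 1.35 ± 0.09 in Rv1-Luc in CSS (FDR 4.93e-18). COL3A1 was called in the same settings and in dKO-19, at levels of at most 1.54 CPM, and the transcription factor TWIST1 rose in Rv1-WT in CSS by 0.68 ± 0.08 (FDR 1.70e-10). The integrin subunit gene ITGA5 fell in Rv1-Luc in CSS (-0.82 ± 0.10), dKO-8 (-0.62 ± 0.09) and dKO-19 (-1.01 ± 0.09, FDR 1.97e-13). FN1 did not pass in the 4 dKO lines, with log2 changes of -0.53 to 0.07, and TNC was called in dKO-8 (0.67) and dKO-19 (0.80) but in neither kinase-dead line (0.13 and -0.30). The summed level of 9 fibroblast markers, COL3A1 among them, was 15.9 to 16.7 CPM in Rv1-WT FBS vehicle libraries and 22.4 to 23.1 CPM under SNX631, and its part in these changes was not tested. For TNC the response of dKO-19 exceeded that of dKO-19M by 1.10 ± 0.16 (FDR 4.37e-07).

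The second question was how the members differ between androgen-depleted CSS and FBS. Passage and seeding density differed along with the medium and cannot be told apart from it. Depletion below means this whole difference. In Rv1-WT under vehicle, CLDN4, CLDN3 and EPCAM were lower in CSS and CLDN7, CDH1, TJP1 and CDH2 higher. There 7 of 10 members passed the FDR limit (36.2% of all genes did) and 2 were called (10.9%). In Rv1-Luc under vehicle 0 members passed the FDR limit (7.94% of all genes did) and 0 were called (1.49%), although CDH2, TJP1 and ZEB1 had an unadjusted p under 0.05. Under SNX631, 7 members passed and 2 were called in Rv1-WT (31.3% and 7.83% of all genes), and 3 passed and 1 was called in Rv1-Luc (7.06% and 1.51%). Over the 4 comparisons 5 of 40 member tests were called, 3 higher and 2 lower, beside 5.43% of all gene tests (3.06% higher, 2.37% lower). CSS and FBS libraries did not overlap for 51.9% (vehicle) and 48.5% (SNX631) of all genes in Rv1-WT, and for 26.4% and 26.2% in Rv1-Luc.

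**Figure D3:**
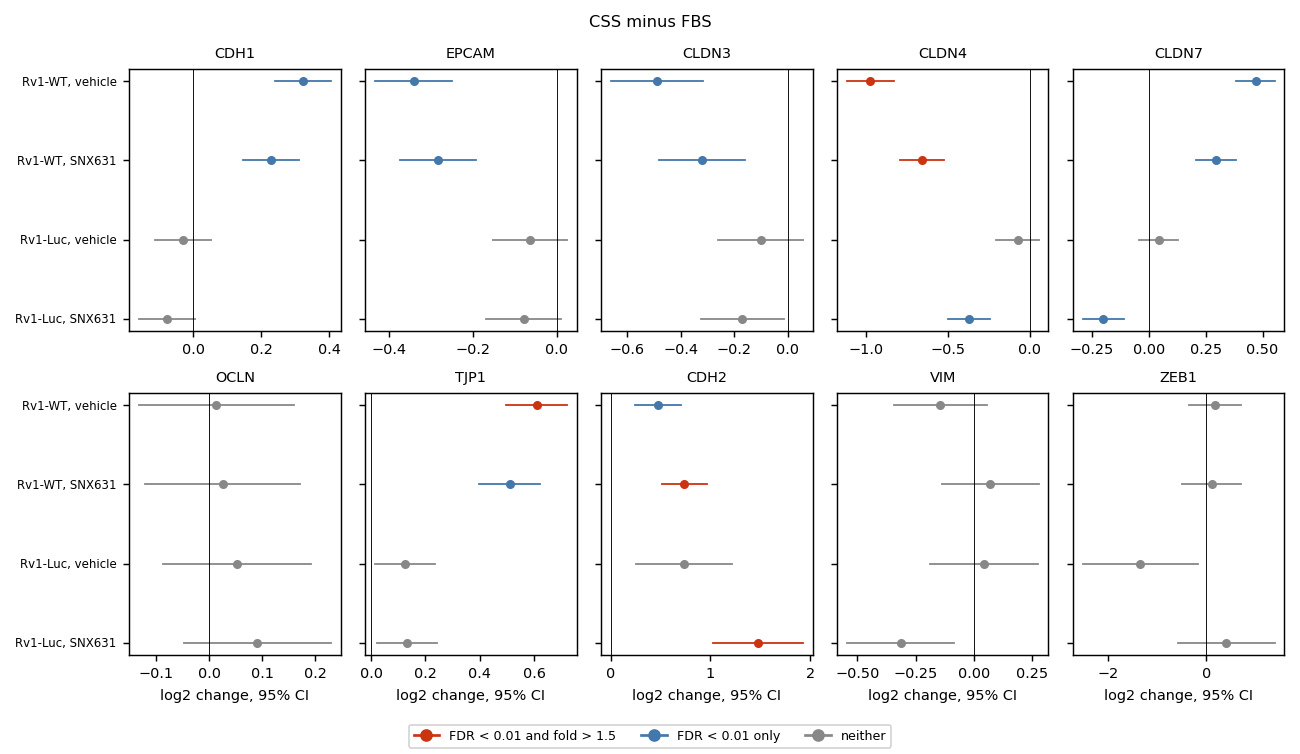
Log2 change in CSS against FBS with its 95% interval for each member (panels, each with its own scale) in Rv1-WT and Rv1-Luc under vehicle or SNX631 (rows), in red where called, in blue where the FDR limit alone was passed and in grey otherwise. In Rv1-WT CLDN4 is near -0.97 under vehicle, while the Rv1-Luc interval spans 0.

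CLDN4 fell on depletion in Rv1-WT. The FBS vehicle libraries (184, 171 and 186 CPM) were all above those in CSS (86.2, 92.0 and 97.5 CPM), with a log2 change of -0.97 ± 0.07 (FDR 4.47e-15). In Rv1-Luc the vehicle libraries overlapped (357, 278 and 313 CPM in FBS, 318, 293 and 289 CPM in CSS), and the log2 change was -0.08 ± 0.06 (FDR 0.506). The difference between the lines was 0.90 ± 0.10 on the log2 scale (FDR 4.79e-10) and was called, at 1.00 without Rv1-Luc FBS vehicle replicate 1 and the other library that stood apart. Under SNX631 CLDN4 fell in both lines, with log2 changes of -0.66 ± 0.07 in Rv1-WT (FDR 9.70e-11) and -0.37 ± 0.06 in Rv1-Luc (FDR 4.14e-05). The comparisons of medium and of SNX631 in a line share libraries and are not independent of each other.

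The same contrast between lines held for 5 more members by the FDR limit alone (25.0% of all genes passed it in this interaction). CDH1 rose in Rv1-WT, from 316, 299 and 295 CPM to 399, 377 and 362 CPM (0.32 ± 0.04, FDR 1.60e-09), and was at 259, 255 and 262 CPM against 252, 250 and 259 CPM in Rv1-Luc, a difference of -0.35 ± 0.06 (FDR 1.66e-06). EPCAM fell in Rv1-WT, from 102, 104 and 109 CPM to 80.5, 85.5 and 83.1 CPM (-0.34 ± 0.05, FDR 7.72e-09), and the lines differed by 0.28 ± 0.06 (FDR 0.000403). E-cadherin and EPCAM RNA thus moved in opposite directions on depletion in the parental line, each by less than 1.5-fold. TJP1 rose from 118, 120 and 104 CPM to 176, 177 and 167 CPM in Rv1-WT, a called change of 0.61 ± 0.06 (1.53-fold, FDR 8.45e-14), and the lines differed by -0.49 ± 0.08 (FDR 1.25e-06). Without Rv1-WT FBS vehicle replicate 3, the lowest of these libraries, the TJP1 change was 0.54 and no longer over the fold limit.

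CLDN7 rose in Rv1-WT by 0.47 ± 0.04 under vehicle (FDR 2.70e-14) and by 0.30 ± 0.04 under SNX631 (FDR 7.60e-08). In Rv1-Luc it changed by 0.04 under vehicle, with an interval of -0.04 to 0.13, and fell by 0.20 ± 0.05 under SNX631 (FDR 0.00122). CLDN3 fell in Rv1-WT by 0.49 ± 0.09 under vehicle (FDR 4.61e-06) and by 0.32 ± 0.08 under SNX631 (FDR 0.000846), and the lines differed by 0.39 ± 0.12 under vehicle (FDR 0.00702), as they did for CLDN7 (-0.43 ± 0.06, FDR 6.48e-08). OCLN, by contrast, had log2 changes of 0.01 to 0.09 in the 4 comparisons and passed in 0 of them.

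CDH2 was the mesenchymal member that rose on depletion. In Rv1-WT it went from 14.4, 11.8 and 14.3 CPM to 18.5, 18.4 and 19.5 CPM under vehicle (0.47 ± 0.12, FDR 0.000517) and from a range of 14.0 to 15.1 CPM to 24.5, 23.1 and 25.8 CPM under SNX631, a called change of 0.74 ± 0.11 (FDR 1.64e-07). In Rv1-Luc under SNX631 it went from 1.01, 1.10 and 0.796 CPM to 2.35, 2.60 and 3.17 CPM, a called change of 1.48 ± 0.22 (FDR 1.48e-06) on 20 to 30 counts per library against 48 to 68. All SNX631 libraries in CSS were above those in FBS in both lines. Under vehicle in Rv1-Luc the values of 0.486, 1.17 and 1.54 CPM in FBS and 1.20, 1.98 and 2.22 CPM in CSS overlapped (0.74 ± 0.24, FDR 0.0288). That change was called without FBS replicate 3 (1.08, FDR 0.00479) or without CSS replicate 1 (FDR 0.00394), and it was 0.37 without the 2 libraries that stood apart (FDR 0.329). VIM and ZEB1 did not pass in any of the 4 comparisons, with log2 changes of -0.31 to 0.07 for VIM and -1.35 to 0.41 for ZEB1.

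Among the pathway lists, depletion in Rv1-WT under vehicle, where 6.09% of all genes were called higher and 4.78% lower, called 1 of 18 tight junction genes higher, near that share, the junction scaffold CGNL1 (0.93 ± 0.10, FDR 9.06e-12), and of 16 epithelial regulators 2 higher and 1 lower. The higher ones were the epithelial splicing factor ESRP1, from 158 to 349 CPM (1.15 ± 0.05, FDR 4.96e-29), and ELF3 (0.72 ± 0.08, FDR 3.51e-10), and the lower one was the membrane protease PRSS8 (-0.67 ± 0.09, FDR 5.88e-09). In Rv1-Luc under vehicle ESRP1 had a log2 change of 0.06 ± 0.05 (FDR 0.487) and ELF3 fell (-0.35 ± 0.08, FDR 0.00160), and the lines differed by -1.09 ± 0.06 for ESRP1 (FDR 1.26e-20) and by -1.07 ± 0.11 for ELF3 (FDR 3.02e-10). PRSS8 differed by 0.82 ± 0.11 and the surface glycoprotein CD24 by 0.59 ± 0.08. Of the junction genes, the desmosomal cadherin DSC2 was called higher in Rv1-WT under SNX631 (0.89 ± 0.07), and the adhesion protein NECTIN4 under both vehicle (0.94 ± 0.22) and SNX631 (0.99 ± 0.19). In Rv1-Luc under vehicle PPL was called higher (1.29 ± 0.17, FDR 4.04e-08). The lines differed under vehicle by 0.91 ± 0.25 for PPL, 0.64 ± 0.06 for the tight junction plaque protein CGN, -0.74 ± 0.14 for CGNL1 and 0.59 ± 0.07 for NECTIN1, all called. Of the mesenchymal list TNC rose in Rv1-WT (0.70 under vehicle and 0.72 under SNX631), as did ITGA5 (0.71 ± 0.09), while FN1 fell in Rv1-Luc (-1.34 ± 0.19 under vehicle and -0.98 ± 0.13 under SNX631) and did not pass in Rv1-WT under vehicle (0.11). The difference between lines was -1.45 ± 0.22 for FN1 (FDR 1.27e-06).

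The lines themselves differed most. Against Rv1-WT in FBS under vehicle, 28 of 50 member tests were called, 8 higher and 20 lower, beside 22.7% of all gene tests (8.78% higher, 13.9% lower). CLDN4 was called higher and CLDN7, CDH2, VIM and ZEB1 lower in all 5 lines. The 5 ZEB1 calls are in these counts, but ZEB1 failed the count filter in most fits without Rv1-WT libraries. It was tested largely because of its Rv1-WT level and could hardly come out other than lower, so its calls carry no weight here. OCLN was called higher in 3 lines. The called members numbered 5 in Rv1-Luc (17.8% of all genes), 6 in dKO-8 (23.3%), 6 in dKO-8M (25.9%), 6 in dKO-19 (22.0%) and 5 in dKO-19M (24.4%). All 5 comparisons use the same 3 Rv1-WT libraries, and the dKO lines descend from the same double-knockout cells, so agreement between them is not independent.

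**Figure D4:**
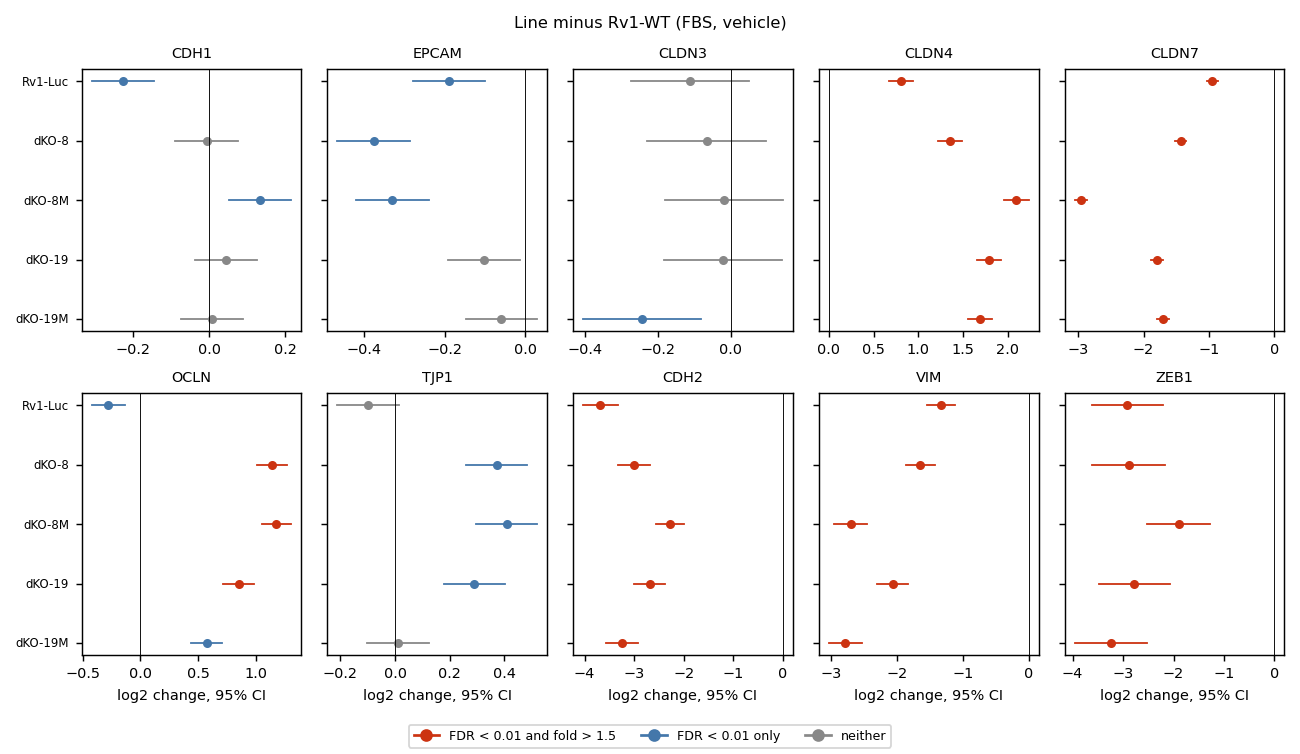
Log2 difference of each line from Rv1-WT (FBS, vehicle) with its 95% interval for each member (panels, each with its own scale), in red where called, in blue where the FDR limit alone was passed and in grey otherwise. CLDN4 is higher and CLDN7, CDH2, VIM and ZEB1 lower in all 5 lines, and OCLN is higher in the dKO lines and lower in Rv1-Luc. ZEB1 passed the count filter largely through its Rv1-WT level.

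CLDN4 exceeded the Rv1-WT level of 181 ± 8.54 CPM by 0.81 ± 0.07 on the log2 scale in Rv1-Luc (1.75-fold), 1.35 ± 0.07 in dKO-8, 1.69 ± 0.07 in dKO-19M, 1.79 ± 0.07 in dKO-19 and 2.10 ± 0.07 in dKO-8M (4.28-fold, 773 ± 8.87 CPM), with FDR of 1.42e-13 or lower. CLDN7, at 245 ± 5.54 CPM in Rv1-WT, had log2 differences of -0.95 ± 0.04 in Rv1-Luc, -1.43 ± 0.04 in dKO-8, -1.70 ± 0.04 in dKO-19M, -1.79 ± 0.05 in dKO-19 and -2.96 ± 0.05 in dKO-8M (7.76-fold lower, 31.7 ± 1.78 CPM), with FDR of 1.18e-26 or lower. No library of any derived line overlapped with the Rv1-WT libraries for either gene. Such separation held for 55.9% (Rv1-Luc) to 67.1% (dKO-8M) of all genes. CLDN3 differed little, by -0.11 to -0.02 in Rv1-Luc, dKO-8, dKO-8M and dKO-19, none of which passed, and by -0.24 ± 0.08 in dKO-19M (FDR 0.00824). Without the 2 libraries that stood apart it was -0.37 in dKO-19M (FDR 7.17e-06) and -0.22 in Rv1-Luc (FDR 0.00843).

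OCLN stood at 21.4, 18.5 and 22.7 CPM in Rv1-WT. It was called higher in dKO-8 at 45.3, 46.4 and 46.4 CPM (1.14 ± 0.07, FDR 8.14e-23), in dKO-8M at 46.8, 45.3 and 50.2 CPM (1.18 ± 0.06, FDR 9.79e-24) and in dKO-19 at 38.4, 36.4 and 38.3 CPM (0.85 ± 0.07, FDR 5.09e-17). In dKO-19M, at 29.4, 33.3 and 30.8 CPM, it was higher by 0.58 ± 0.07 (1.49-fold, FDR 4.51e-11), just under the fold limit. It was called there without the dKO-19M vehicle library that stood apart (0.61), without Rv1-WT replicate 1 (0.60) and without Rv1-WT replicate 3 (0.64). Rv1-Luc was the only line with less OCLN than Rv1-WT, at 16.8, 17.8 and 17.0 CPM (-0.28 ± 0.07, FDR 0.000857). OCLN has a close pseudogene copy, OCLNP1, at 1.53 to 6.88 CPM, with fractional counts in 47.9% of libraries, while OCLN had them in 2.08%.

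TJP1 passed the FDR limit in dKO-8 (0.37 ± 0.06), dKO-8M (0.41 ± 0.06) and dKO-19 (0.29 ± 0.06), and not in dKO-19M (0.01 ± 0.06) or Rv1-Luc (-0.10 ± 0.06). EPCAM was lower in Rv1-Luc (-0.19 ± 0.04), dKO-8 (-0.38 ± 0.05) and dKO-8M (-0.33 ± 0.05), with -0.10 and -0.06 in the CDK19 lines, which did not pass. CDH1 was lower in Rv1-Luc (-0.23 ± 0.04, FDR 4.50e-06) and higher in dKO-8M (0.13 ± 0.04, FDR 0.00383), and within 0.05 of Rv1-WT in the other lines. None of these differences in TJP1, EPCAM or CDH1 reached 1.5-fold.

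The mesenchymal members were low everywhere and lowest outside the parental line. CDH2 held 14.4, 11.8 and 14.3 CPM in Rv1-WT under vehicle in FBS (177 to 245 counts), against 0.486, 1.17 and 1.54 CPM in Rv1-Luc (12 to 34 counts), a log2 difference of -3.68 ± 0.17 (12.8-fold lower, FDR 5.09e-26). In the dKO lines its log2 differences ran from -3.25 to -2.28, and without the 2 libraries that stood apart that of Rv1-Luc was -3.32. VIM held 14.9, 14.1 and 13.7 CPM in Rv1-WT and 5.99, 5.99 and 4.95 CPM in Rv1-Luc (-1.33 ± 0.11, FDR 4.55e-16), with log2 differences of -2.79 to -1.64 in the dKO lines and the lowest mean in dKO-19M, at 1.97, 2.45 and 1.79 CPM. ZEB1 held 1.82, 1.74 and 2.34 CPM in Rv1-WT (26 to 36 counts) and 0.283, 0.252 and 0.227 CPM in Rv1-Luc (5 to 7 counts), with log2 differences from -1.90 ± 0.31 in dKO-8M to -3.24 ± 0.36 in dKO-19M. For all 3 genes every Rv1-WT library was above every library of the other lines in this comparison. Libraries of a line and of Rv1-WT did not overlap for 55.9% (Rv1-Luc) to 67.1% (dKO-8M) of all genes. ZEB1 failed the count filter in most fits without Rv1-WT libraries, so it was tested here largely because of its Rv1-WT level.

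**Figure D5:**
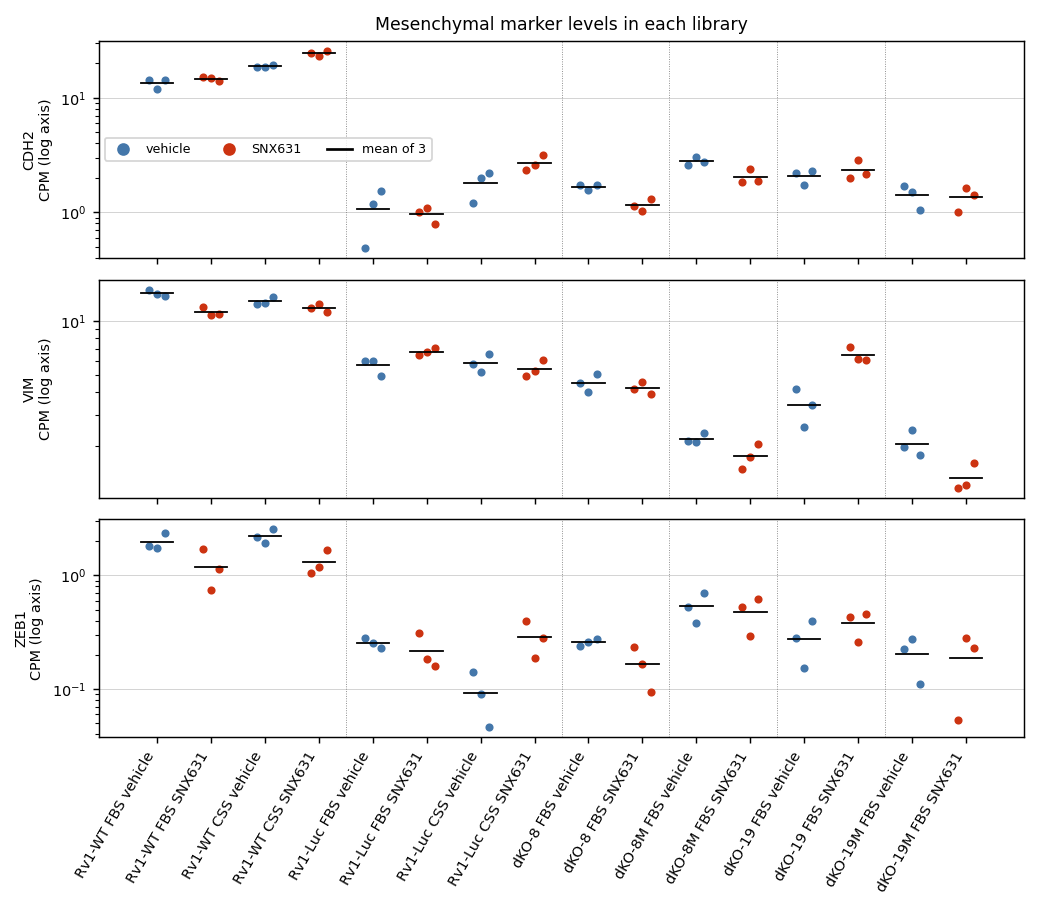
Levels of CDH2, VIM and ZEB1 in counts-per-million units (CPM, log axes) in each of the 48 libraries, by group, with vehicle in blue, SNX631 in red and a black line for the mean of 3 libraries. Rv1-WT libraries are the highest for all 3 genes, and VIM rises under SNX631 in dKO-19.

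The summed level of 9 fibroblast markers moved with these lines, from 15.9 to 16.7 CPM in the Rv1-WT FBS vehicle libraries, 9.93 to 11.7 CPM in Rv1-Luc and 4.48 to 7.27 CPM in the dKO lines. Its main terms were LUM, with a median of 11.6 CPM in Rv1-WT and 0.134 in dKO-8, and COL1A1, while DCN, PDGFRA, THY1, COL1A2 and FAP were each at most 0.784 CPM in every library, with FAP at 0 in 44 and THY1 at 0 in 34 libraries. The other 2 did not follow the sum in every line: PDGFRB had a median of 0.531 CPM in Rv1-WT, 0.394 in Rv1-Luc and 0.836 to 1.54 in the dKO lines, and COL3A1 of 0.519 CPM in Rv1-WT, against 0.663 for dKO-19M and 0.482 for dKO-19. The luminal keratin KRT8 moved the other way, from a median of 519.5 CPM in Rv1-WT to 971 in Rv1-Luc and 2396 to 2874 in the dKO lines. All medians here are over every library of a line. They pool vehicle with SNX631 and, in Rv1-WT and Rv1-Luc, FBS with CSS, so they are not matched to the FBS vehicle sums. The part of other cells in these differences was not tested. VIM and ZEB1 each overlap an antisense gene (by 641 and 366 exon bases), VIM-AS1 at 0.327 to 2.95 CPM and ZEB1-AS1 at 4.35 to 19.7 CPM. The kit keeps strand, but the strand setting of the counting is not given in the sources used here, so it is not known whether reads of ZEB1 and of its more abundant antisense partner were kept apart.

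The pathway lists differed between lines as well. Of 16 epithelial regulators, those called higher numbered 9 for dKO-8 (8.93% of all genes), 6 for dKO-8M (9.78%), 6 for dKO-19 (7.54%) and 7 for dKO-19M (9.04%), where 1 was called lower. The median log2 difference of the list was 0.63, 0.56, 0.44 and 0.56 in those lines, beside -0.01 to 0.01 for all genes. In Rv1-Luc the median of the list was 0.17, and 4 were called higher (8.63% of all genes). The surface glycoprotein CD24 showed the lowest p, at 156 CPM in dKO-19M against 43.8 in Rv1-WT (1.84 ± 0.05, FDR 1.58e-37). PRSS8 (1.73 ± 0.07) and the epithelial transcription factor GRHL2 (1.14 ± 0.05) were higher in dKO-8, and the splicing factor ESRP2 (0.78 ± 0.04) and the membrane protease ST14 (0.73 ± 0.05) in dKO-19. Of 18 tight junction genes, 3 or 4 were called higher and 1 lower in each dKO line (14.4% to 16.1% of all genes were lower), with medians of 0.25 to 0.40. They included the scaffolds TJP3 (0.86 ± 0.05 in dKO-8), PATJ (1.16 ± 0.06 in dKO-8) and CGNL1 (1.54 ± 0.09 in dKO-8). CLDN1, a claudin of barrier epithelia, was at 2.17 CPM in Rv1-WT and 0.145 CPM in Rv1-Luc. In Rv1-Luc the tight junction list had 0 genes called higher and 1 lower (8.63% and 9.16% of all genes), with a median of -0.17.

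Of 18 adherens junction and desmosome genes, 2 to 4 were called higher and 2 to 4 lower in the dKO lines, beside 7.54% to 9.78% of all genes higher and 14.4% to 16.1% lower, so that the lower count was near the share of all genes. In Rv1-Luc 0 were called higher and 2 lower (8.63% and 9.16% of all genes), with a median of -0.11. P-cadherin (CDH3) was higher in dKO-8M (0.99 ± 0.05) and so was vinculin (VCL, 0.72 ± 0.05), while DSC2 was lower in dKO-8 (-2.18 ± 0.08), NECTIN1 lower in dKO-19 (66.1 CPM against 132 CPM) and PERP lower in dKO-8M (-0.65 ± 0.04). Of 17 tested mesenchymal genes, 5 or 6 were called lower and 1 to 3 higher in each line (9.16% to 16.1% of all genes lower and 7.54% to 9.78% higher), with medians of -0.45 to -0.29. TNC was at 2.43 CPM in dKO-8 against 50.2 CPM in Rv1-WT (-4.35 ± 0.11, FDR 2.34e-39) and FN1 at 5.63 CPM in dKO-8M against 44.6 CPM (-2.98 ± 0.14, FDR 3.08e-20). PRRX1 was at 0.0814 CPM in dKO-19 against 2.54 CPM. In the other direction, TAGLN was higher in Rv1-Luc (2.09 ± 0.16) and FGFR1 in dKO-8 (0.69 ± 0.07). A listed gene kept by the count filter through its Rv1-WT level, as PRRX1 may be, could hardly come out other than lower. Such genes raise the lower counts of the mesenchymal list and lower its median, by an amount that was not tested.

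The last comparison set the derivatives with a kinase-dead form beside those with the active form under vehicle. Between dKO-8M and dKO-8, 4 of 10 members were called (7.03% of all genes): CLDN4 was higher (0.75 ± 0.06, FDR 9.24e-13), CLDN7 lower (-1.52 ± 0.05, FDR 6.09e-33), VIM lower (-1.06 ± 0.15, FDR 2.64e-08) and CDH2 higher (0.73 ± 0.20, FDR 0.00337). The SNX631 effect in dKO-8, which shares the dKO-8 vehicle libraries, was 0.72 for CLDN4, -0.54 for CLDN7, -0.11 for VIM and -0.53 for CDH2. The CDH2 call was lost without any 1 of the 3 dKO-8 libraries (FDR 0.0104 to 0.0166) or without dKO-8M replicate 2 (FDR 0.0217). CDH1 was higher in dKO-8M by 0.14 ± 0.04 (FDR 0.00515).

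Between dKO-19M and dKO-19, 1 of 10 members was called (7.60% of all genes). VIM was at 1.97, 2.45 and 1.79 CPM in dKO-19M against 4.15, 2.57 and 3.40 CPM in dKO-19. These did not overlap, as for 39.4% of all genes, with a log2 difference of -0.72 ± 0.15 (FDR 0.000149). The call rested on the highest of these libraries, since it was lost without dKO-19 vehicle replicate 1 (-0.55, FDR 0.0102), and it was also lost when only these 6 libraries were fitted (FDR 0.0208). CLDN4 (-0.10 ± 0.06, FDR 0.259) and CLDN7 (0.09 ± 0.05, FDR 0.127) did not pass. OCLN (-0.28 ± 0.06, FDR 0.000141) and TJP1 (-0.28 ± 0.05, FDR 3.57e-05) were both lower in dKO-19M. Without the 2 libraries that stood apart these were -0.24 and -0.17, both past the FDR limit, and CDH2 was called lower as well (-0.73, FDR 0.00801). Between dKO-19 and dKO-8, 0 of 10 members were called (6.51% of all genes), and EPCAM (0.27 ± 0.04), CLDN4 (0.44 ± 0.06), CLDN7 (-0.36 ± 0.05) and OCLN (-0.29 ± 0.06) passed the FDR limit alone (23.8% of all genes did). VIM, at -0.42 ± 0.14 between these lines (FDR 0.0122), was called without dKO-19 replicate 1 (-0.59, FDR 0.00230). Over these 3 comparisons 5 of 30 member tests were called, beside 7.04% of all gene tests.

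Between derivatives, 0 to 3 genes were called in each direction in a list and comparison, beside 3.26% of all gene tests higher and 3.78% lower over the 3 comparisons. The count was highest for the 16 epithelial regulators between dKO-19 and dKO-8, with 1 higher and 3 lower. DSC2 (1.30 ± 0.09) and CD24 (0.84 ± 0.05) were higher in dKO-19 than in dKO-8, and CGNL1 (-1.21 ± 0.09), ELF3 (-0.72 ± 0.07), FGFR1 (-0.75 ± 0.07), TWIST1 (-0.60 ± 0.08), PPL (-1.18 ± 0.27) and RAB25 (-1.26 ± 0.37) lower. Against dKO-8, dKO-8M had more TNC (1.61 ± 0.15) and less PRSS8 (-0.69 ± 0.06). In dKO-19M against dKO-19, ACTA2 was higher (0.98 ± 0.13) and TAGLN lower (2.04 CPM against 4.11 CPM, FDR 1.41e-07), and NECTIN4 (-1.94 ± 0.22) and OVOL1 (-0.93 ± 0.13) were lower. Of the 7 interactions, 4 of 70 member tests were called, all listed above, beside 1.87% of all gene tests. Of all genes, 0.905% were called for dKO-8 against dKO-8M (CLDN4 among them), 2.07% for dKO-19 against dKO-19M and 0.885% for dKO-19 against dKO-8 (VIM in both), and 8.65% for the depletion response of Rv1-Luc against Rv1-WT (CLDN4). In the 3 interactions with 0 members called, which set the SNX631 response in CSS beside that in FBS in Rv1-WT and Rv1-Luc and Rv1-Luc beside Rv1-WT in FBS, the shares of all genes were 0.295%, 0.0800% and 0.175%.

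As a description, the genes whose group means of log2 CPM followed a member most closely over the 16 groups (Pearson's r, with no p, since groups of 1 line share their origin) were ATE1 (r = 0.974), NEK2 (r = 0.973) and the unnamed gene ENSG00000285542 (r = 0.960) for CDH1. For EPCAM they were HPDL (r = 0.932), ACTR3B (r = 0.906) and NDUFB5 (r = 0.901). For VIM they were PRTFDC1 (r = 0.966), PLA2G4C (r = 0.964) and GRM5 (r = 0.950), of which GRM5 had a mean of 0.139 CPM.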

How the data were processed

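RNA was sequenced in 48 libraries from 6 lines of human 22Rv1 cells (16 groups of 3), from total RNA with a directional kit. The submitters' notes name FastQC, cutadapt 2.8, STAR 2.7.2b, featureCounts and Subread 2.0.3 as tools, and GRCh38.p13 and GRCm39 as builds, with no role given for either. The deposited table held expected counts per gene made by the authors, of which 81.6% of the nonzero values were whole numbers. They were rounded here. The 2 transgene entries were left out of the fit, and 0 per-sample columns were not used.

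Of 61817 entries, 20009 passed the filterByExpr filter (minimum count 10, minimum total 15). One edgeR 4.0.16 quasi-likelihood model in R 4.3.3, with TMM scaling and a mean for each group, gave 27 comparisons, of which 7 were interactions. Residual degrees of freedom were 32 and the common biological coefficient of variation was 4.2%. Benjamini-Hochberg FDR covered all genes of a comparison. Errors in the text are SE of log2 differences or SD of levels, and levels are in counts-per-million units (CPM) after TMM scaling. Library totals ran from 13231751 to 31496020 counts, and the change of a gene with a few counts per library could not be seen at this depth. The script was tested on simulated data.

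The members and lists were chosen with earlier results of these data known. All 10 members are named. From each list and family of comparisons, at most 5 called genes with the lowest p are named, with their values in other comparisons where these are set beside them, and some listed genes are not reported here. The genes most like CDH1, EPCAM and VIM were the 3 with the highest Pearson correlation over group means.

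Alternatives were library-size scaling, DESeq2 size factors, no filter, a replicate block within each line, only the libraries of a comparison, the DESeq2 1.42.0 Wald test, an FDR limit of 0.05 with no fold limit, a test against a 1.5-fold change, leaving out each library, and leaving out both libraries that stood apart. Same-numbered replicates of a line did not deviate together (correlations of -0.0786 to 0.229, above 0.1 in 4 of 24), so the numbers were not taken as pairs. Sequences came from RefSeq entries on GRCh38.p14 and positions from GENCODE release 29.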

Additional observations from a re-analysis of the deposited data

Results flagged for a closer look

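The response to a treatment differed between groups for 2 members, each by a test of the difference itself in the edgeR model. The CLDN4 response to SNX631 was larger in dKO-8 than in dKO-8M by 0.82 ± 0.09 on the log2 scale (SE, FDR 1.36e-08). In dKO-8 all 3 SNX631 libraries lay above all 3 vehicle libraries, where 35.4% of all genes had groups that did not overlap. In dKO-8M they lay below them, where 21.0% of all genes had such groups, and the change there did not pass (FDR 0.664). The VIM response to SNX631 was larger in dKO-19 than in dKO-19M by 1.54 ± 0.23 (FDR 9.02e-07) and larger in dKO-19 than in dKO-8 by 1.03 ± 0.18 (FDR 8.66e-05), at VIM levels of 1.17 to 7.18 CPM in these groups. The CLDN4 response to CSS under vehicle (passage and density included) differed between Rv1-Luc and Rv1-WT by 0.90 ± 0.10 (FDR 4.79e-10). CLDN4 fell in Rv1-WT, and its libraries overlapped in Rv1-Luc.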

How the results depend on the processing

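The counts of calls moved with the limits used. At an FDR under 0.05 with no fold limit, 27 member tests passed under SNX631 (7 as reported), 18 on androgen depletion (5), 15 between derivatives (5), 16 in interactions (4) and 709 gene tests of the pathway lists (200), while the count between lines was 40 (28). Tested against a 1.5-fold change, these were 1, 2, 2, 1 and 109, and 28 between lines. The shares of all genes at these limits are not given here, so the counts show only how calls depend on the limits. Without 1 library at a time the counts were 6 to 8, 4 to 6, 4 to 5, 4 and 193 to 203, and 28 to 29 between lines. Over 2040 such member results, 9 lost and 7 gained a call, in CLDN3, CDH2, OCLN, TJP1 and VIM. With the replicate number as a block the counts were 7, 5, 5, 4 and 200, and 28 between lines, and 0 member calls changed. No member call reversed its direction under any alternative run. With library-size scaling the CLDN3 call in Rv1-WT in CSS was lost (0.57), and the median of all genes moved to -0.15 in dKO-19 against Rv1-WT. Without a filter that call was lost too (0.58) and OCLN in dKO-19M was gained (0.61). The DESeq2 Wald test and DESeq2 size factors changed 0 member calls. With only the libraries of a comparison 2 calls were lost (CLDN4 in Rv1-Luc in FBS and VIM in dKO-19M against dKO-19), and ZEB1 failed the count filter and was not tested in 13 of the 27 comparisons. Without both libraries that stood apart, chosen after the data were seen, 3 calls were gained (CDH2 in Rv1-Luc in CSS under SNX631, 0.63, CDH2 in dKO-19M against dKO-19, -0.73, and OCLN in dKO-19M, 0.62). ZEB1, at 1 to 49 counts per library, is the member that depth limits most. The cause of these moves was not tested.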
